A study of Mus musculus with 4 samples.

Results

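The cytosolic ribosomal protein genes were taken as the 90 protein-coding mouse genes whose symbol starts with Rpl or Rps followed by a digit or by the letter p, with the Rps6k kinase genes left out, of 21631 protein-coding genes annotated on the autosomes and chromosome X. The rule uses symbols and no measured value. By symbol, 76 of the 90 encode core proteins of the ribosome: 43 of the large subunit, 30 of the small subunit and 3 of the P stalk. Another 13 carry the symbol of a paralog or of a copy that resembles a pseudogene. The remaining gene, Rps19bp1, encodes a protein that binds the ribosomal protein S19 and is no part of the ribosome. Rpsa, Fau and Rack1, which also encode ribosomal or ribosome-bound proteins, fall outside the symbol rule and are given separately.

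The 80S ribosome of the cytosol joins a large subunit, which forms peptide bonds, to a small subunit, which decodes the mRNA, and the core proteins are needed in matched amounts. Most of the genes are short, intron-containing and active in every cell type, and their mRNAs begin with a run of pyrimidines, the 5′ terminal oligopyrimidine (TOP) tract, through which growth signals set their translation. Dividing neural stem cells depend on high ribosome production, and mutations in many of the human genes cause Diamond-Blackfan anaemia.

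Six3, a homeodomain transcription factor of the early forebrain and eye, was overexpressed in primary mouse neural stem cells to find the parts of the genome that it binds. In CUT&RUN micrococcal nuclease fused to protein A/G is held on chromatin by an antibody, and the DNA that it cuts free is sequenced. There were 3 libraries labelled for FLAG-tagged Six3 and 1 labelled IgG, all of WT genotype and all from cells kept for 3 h in neural differentiation medium. The design text gives overexpression for the cells as a whole, while the construct, its promoter and the number of separate cultures are not stated. The deposited data are 1 table of 1578514 called regions, each with its position, its highest coverage signal and the signal summed over its bases. No column belongs to a single library: regions from FLAG and IgG libraries cannot be told apart, the depth behind each region is unknown, and no replicate error, interval or test can be given. All values below are therefore descriptions, set beside the same measure over all protein-coding genes and over genes of similar length, which are the 1000 genes outside the set nearest in length to each member. A table of regions also holds no marker expression, so the labelled cell type could not be checked.

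The highest signals take whole multiples of 2 step sizes, 1.9 for 945651 regions and 0.48 for 632860, with 3 regions in neither set. The sets need not share a scale, and which libraries gave which set is not stated. Over the 90 genes and 1 kb on either side lay 369 distinct regions. Of these, 237 belonged to the 1.9-step set, touched 86 genes and were 3 steps high at the median, as in the whole table. Their median width was 477 bp, against 455 bp over all 1.9-step regions, and the tallest reached 6 steps, a signal of 11.4. The other 132 belonged to the 0.48-step set, touched 68 genes and had a median width of 193 bp, against 195 bp in the whole table. Width and height of the regions at ribosomal protein genes thus lay close to those of the table.

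Promoter sequences of 6 members show what the regions do and do not cover. Each line runs 5′ to 3′ on the coding strand, from 250 bases before to 20 bases after the annotated start, from RefSeq on GRCm38.p6, whose coordinates are those of mm10. Capitals mark bases inside a called region and lower case marks bases outside any region. Rpl23, Rpl31, Rpl5, Rpl27a and Rps3a1 were among the 8 members with the tallest 1.9-step region over the promoter window, and Rpl37a was added after its values were seen, as a core gene with no 1.9-step region.
Rpl23, chr11:97782420-97782689, minus strand: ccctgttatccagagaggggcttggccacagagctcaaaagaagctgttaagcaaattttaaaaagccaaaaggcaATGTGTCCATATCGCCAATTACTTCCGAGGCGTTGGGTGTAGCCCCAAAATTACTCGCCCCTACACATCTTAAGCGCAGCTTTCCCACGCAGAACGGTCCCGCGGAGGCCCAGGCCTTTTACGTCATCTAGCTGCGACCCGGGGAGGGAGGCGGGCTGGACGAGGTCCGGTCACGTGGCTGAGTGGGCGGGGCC
Rpl31, chr1:39367601-39367870, plus strand: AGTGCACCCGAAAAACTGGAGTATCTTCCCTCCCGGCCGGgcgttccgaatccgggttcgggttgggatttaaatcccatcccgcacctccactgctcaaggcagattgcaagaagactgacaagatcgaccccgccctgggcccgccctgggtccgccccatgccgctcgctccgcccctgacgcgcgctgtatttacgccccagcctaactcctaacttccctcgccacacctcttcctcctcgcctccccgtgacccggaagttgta
Rpl5, chr5:107900278-107900547, plus strand: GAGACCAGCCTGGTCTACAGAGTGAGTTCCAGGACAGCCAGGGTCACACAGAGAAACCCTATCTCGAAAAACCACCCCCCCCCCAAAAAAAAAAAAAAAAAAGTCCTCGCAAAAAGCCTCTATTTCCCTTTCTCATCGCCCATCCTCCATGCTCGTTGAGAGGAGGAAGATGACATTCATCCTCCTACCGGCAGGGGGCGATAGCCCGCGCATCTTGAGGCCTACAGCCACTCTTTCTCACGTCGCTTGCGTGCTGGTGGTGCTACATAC
Rpl27a, chr7:109518945-109519214, plus strand: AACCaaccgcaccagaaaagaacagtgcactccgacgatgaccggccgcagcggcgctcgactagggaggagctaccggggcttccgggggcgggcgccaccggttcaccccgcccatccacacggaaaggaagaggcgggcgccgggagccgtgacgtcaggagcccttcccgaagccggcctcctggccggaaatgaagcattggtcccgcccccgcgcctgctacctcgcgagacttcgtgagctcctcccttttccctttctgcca
Rps3a1, chr3:86142649-86142918, minus strand: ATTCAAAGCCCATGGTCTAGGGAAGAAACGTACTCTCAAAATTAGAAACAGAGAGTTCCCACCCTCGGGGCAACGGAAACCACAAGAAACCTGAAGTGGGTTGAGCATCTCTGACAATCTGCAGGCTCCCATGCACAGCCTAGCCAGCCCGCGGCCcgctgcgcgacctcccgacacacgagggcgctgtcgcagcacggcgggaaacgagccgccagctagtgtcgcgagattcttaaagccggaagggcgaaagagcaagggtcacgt
Rpl37a, chr1:72711010-72711279, plus strand: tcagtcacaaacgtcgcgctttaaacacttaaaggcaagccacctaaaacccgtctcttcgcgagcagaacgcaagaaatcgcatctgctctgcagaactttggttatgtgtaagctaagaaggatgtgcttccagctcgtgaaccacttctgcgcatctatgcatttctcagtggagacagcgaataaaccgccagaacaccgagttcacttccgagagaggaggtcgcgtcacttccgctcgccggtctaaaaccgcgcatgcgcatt

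The region at Rpl23, which encodes a large subunit protein that restrains Mdm2, covered 194 of the 270 printed bases and the start itself, with a highest signal of 9.5. At Rpl5 the region covered all 270 bases with a highest signal of 7.6, and at Rps3a1 it covered 156, ending before the start. At Rpl31 the 9.5 region reached only the first 40 printed bases and at Rpl27a the 7.6 region only the first 4, so the pyrimidine runs near those starts, cctcttcctcctc in Rpl31 and ctcctcccttttccctttct in Rpl27a, lay outside any region. None of the printed Rpl37a promoter was covered.

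Nearly every member had a region near 1 of its ends, as did nearly every gene of the genome. Within 1 kb of either gene end, 89 of 90 members (98.9%) overlapped a region of either set, against 94.2% of all protein-coding genes and 91.7% of genes of similar length. A 1.9-step region was found at 85 members (94.4%; 88.1% of all genes and 85.3% at similar length). A 0.48-step region was found at 62 (68.9%; 65.7% and 63.1%), and regions of both sets at 58 (64.4%; 59.5% and 56.7%). All 76 core genes had a region of either set. The members' shares were above both backgrounds in each count, but a table in which 94.2% of genes have a region leaves little room to differ.

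Height gave more range than presence. A region with a highest signal of 7.6 or more, 4 steps of the 1.9-step set, overlapped 1 kb either side of an end in 44 members (48.9%). The shares were 38.9% of all genes and 37.5% of genes of similar length. Here and below, the height given for a window is that of the tallest region overlapping it by 1 bp or more. The summit can lie outside the window, as at Rps25, where it stood 2383 bp past the far end. With windows of 500 bp it was 26 of 90 members, against 27% of all genes. Counting only regions with their midpoint in the 1 kb window, it was 33 of 90, against 32.3% of all genes. The size of the difference thus depended on the window width and on the overlap rule. At 9.5 or more, within 1 kb, the counts were 16 members (17.8%), 13.3% of all genes and 13.3% at similar length. The tallest region at the ends was 3.8 in 14 members, 5.7 in 27, 7.6 in 28, 9.5 in 14 and 11.4 in 2, Rpl21 and Rps19bp1. No member reached above 11.4, which 222 genes (1.03%) of the genome did, so 0 of 90 is near that background. At the low end, Rpl37a and Rps2 had only 0.48-step regions of 0.96 at their ends, Rpl31-ps12 and Rps4x only 0.48-step regions with 1.44 as the highest, and Rpl10l had none. In 0.48-step signal, 1 member (1.11%), Rpl7, reached 4 steps or more, against 5.04% of all genes and 4.59% at similar length.

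**Figure D1:**
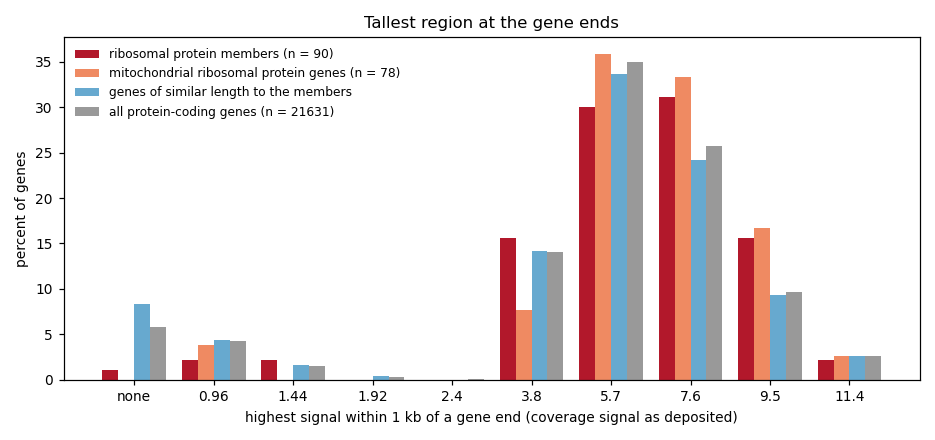
Percent of genes (y axis) by the highest signal of a region overlapping 1 kb either side of a gene end (x axis, coverage signal as deposited). Shown are the 90 members, the 78 mitochondrial ribosomal protein genes, genes of similar length to the members and all 21631 protein-coding genes. Members peak at 5.7 and 7.6 like the backgrounds, with 31.1% at 7.6 against 25.7% of all genes, and the 222 genes above 11.4, none of them members, lie outside the axis.

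Over the whole gene with 1 kb flanks, 89 members had a region (96.7% of all genes; 93% at similar length), and over the gene body alone 81 did (93.3% of all genes; 85% at similar length). A signal of 7.6 or more lay over gene and flanks in 48 members (53.3%), against 74% of all genes but 43.3% of genes of similar length. Over the body alone it lay in 30 members (33.3%; 69.2% of all genes and 31.8% at similar length). The members are short, with a median length of 3169 bp against 17329 bp over all genes, so the all-gene share is not a fair background for a window that grows with the gene, and the comparison at similar length is the one to read.

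Summed signal, in signal times bp, put the members near the middle of genes of their length. The median over gene and flanks was 4092.6 (quartiles 2723.65 and 6666.77), against 3850.22 at similar length and 14072.7 over all genes. Placed among its own 1000 length neighbours, the median member stood at percentile 55.4 (quartiles 37.4 and 79.8), and 52 of 90 lay above percentile 50. The 9 members above percentile 90 were Rpl23a at 97.5, Rpl21 at 96.2, Rpl7 at 95.1, Rpl19 and Rps19bp1 at 93.6, Rps29 and Rpl36 at 93.4, and Rpl3 and Rpl12 at 90.6. The 2 below percentile 10 were Rpl10l at 6.1 and Rps4x at 8. The spread among members was wide, and the set as a whole did not stand at either extreme.

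**Figure D2:**
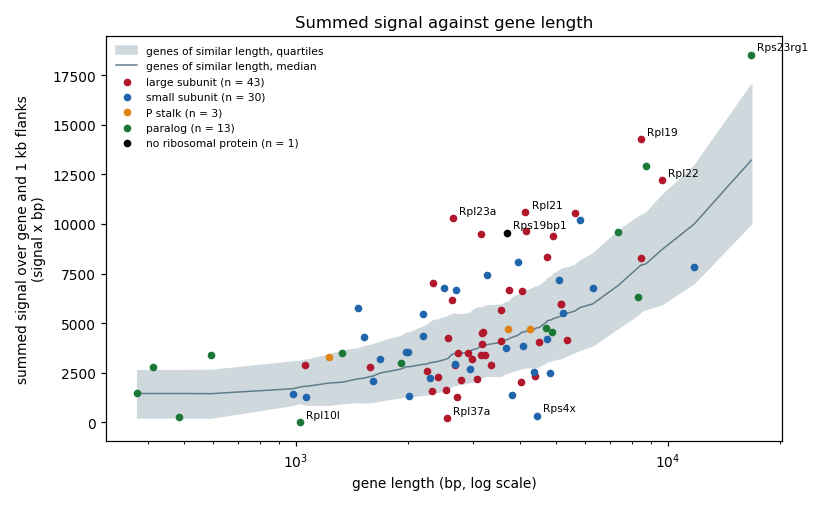
Summed signal over each gene and its 1 kb flanks (y axis, signal times bp) against gene length (x axis, bp, log scale), 1 point per member coloured by group, with the median (line) and quartiles (band) of genes of similar length. Members lie on both sides of the line, with Rpl23a and Rpl21 far above the band and Rpl10l, Rpl37a and Rps4x near 0.

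Among the core genes of the large subunit, tall regions were more common than among those of the small subunit. A signal of 7.6 or more stood at the ends of 26 of 43 large subunit genes (60.5%; 40.2% at similar length) and of 11 of 30 small subunit genes (36.7%; 36.9% at similar length). At 9.5 or more it was 12 of 43 (27.9%; 14.5%) and 2 of 30 (6.67%; 13%). In highest signal over gene and flanks, the median large subunit gene stood at percentile 69.5 of its length neighbours and the median small subunit gene at 51.7. In summed signal the medians were closer, 55.2 and 48.8. Heights take few values, so 1 step moves the percentile of highest signal far. At similar length, Rpl34 with 5.7 stood at 38.3 and Rpl35 with 7.6 at 69.5. The difference between the subunits was not tested, since it rests on genes and not on replicate samples. At the ends it is given only for 1 kb windows with an overlap of 1 bp, and not for narrower windows or by midpoint. Rpl21, Rpl8 and Rpl3, large subunit genes that reached 7.6 at an end, lie where 1.9-step signal was raised over megabases. No core small subunit gene does, and the part of this in the difference was not tested.

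**Figure D3:**
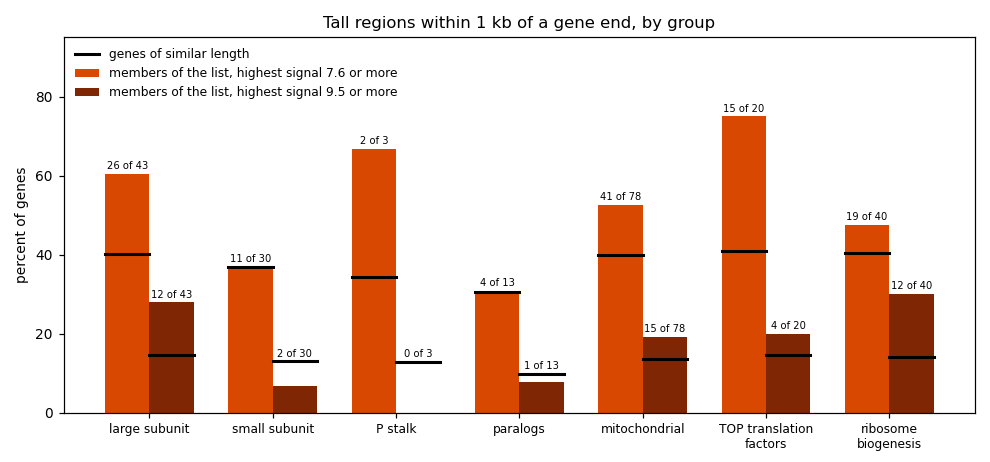
Percent of genes (y axis) with a region of highest signal 7.6 or more (light bars) and 9.5 or more (dark bars) overlapping 1 kb either side of a gene end. Core genes of each subunit, the P stalk, paralogs and 3 comparison lists are shown, with counts above the bars and the share of genes of similar length as a black line. The large subunit bars stand above their lines at 60.5% and 27.9%, and the small subunit bars lie at or below theirs.

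The tallest region at an end of any large subunit gene lay at Rpl21, whose introns host small nucleolar RNAs. It ran over 1879 bp (chr5:146831330-146833208), covered 1 end of the gene, and had a highest signal of 11.4 and a summed signal of 8249.8. Rpl21 lies in a segment where 1.9-step signal was raised over megabases: its 500 kb bin held 3.67 times the summed signal of the median autosomal bin. At Rpl23 the 9.5 region (chr11:97782158-97782613) covered the start, with its summit 56 bp inside the gene, and 4 more 1.9-step regions of 3.8 to 7.6 lay between there and 1 kb past the far end. Rpl23a, which encodes a protein at the exit of the peptide tunnel, had 5 regions of 5.7 to 9.5, and the tallest (chr11:78182981-78183689) covered an end of the gene. These 3 genes, Rpl21, Rpl23 and Rpl23a, were the only members with a region of 9.5 or more over an end base.

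The other tall regions of the large subunit lay beside an end. At Rpl31 the summit of the 9.5 region (chr1:39367309-39367640) stood 452 bp before the start, with a 7.6 region further upstream. At Rpl10a, a gene for a protein of the mobile L1 stalk, it stood 918 bp before the start. Among members with known strand these were the only upstream summits of 9.5 or more. At Rpl28 the summit lay 435 bp and at Rpl38 1324 bp past the far end, while at Rpl35a it lay 477 bp and at Rpl22 1032 bp before the far end, inside the gene. The 9.5 region of Rpl19 stood 1061 bp inside the annotated gene and overlapped the neighbouring Cacnb1, and the promoter entry used for Rpl19 starts 4707 bp inside the gene, so that region lies upstream of that start. Rpl7 and Rpl30 also had a 9.5 region, at genes whose strand was not in the tables used.

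Rpl7 was the member with the most 0.48-step signal. It encodes a large subunit protein, and a 0.48-step region of 955 bp (chr1:16102992-16103946) inside it reached 5 steps, a signal of 2.4, with a summed signal of 1220.16. The next tallest 0.48-step regions at members reached 1.44. Rpl7 also had 1.9-step regions of 9.5, 7.6 and 3.8, and the 0.48-step region of 2.4 overlapped none of them.

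Among small subunit genes, Rps19, the gene most often mutated in Diamond-Blackfan anaemia, had 1.9-step regions of 5.7 before the start, 3.8 and 5.7 inside the gene and 9.5 past the far end, where the summit stood at 1292 bp. Rps25, a protein used in initiation at internal ribosome entry sites, had a region of 9.5 over 1966 bp, the widest at any member, which began past its far end and lay over the neighbouring gene Ccdc84. At Rps6, whose protein is phosphorylated on growth signals, the tallest of 3 1.9-step regions reached 7.6. At Rps3a1 regions of 7.6 stood both upstream of the start and past the far end. Both core small subunit genes that reached 9.5 at an end did so past the gene and not at the promoter.

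The P stalk proteins recruit the elongation factors to the large subunit. Rplp0, which anchors the stalk, had regions of 3.8 over the start, 3.8 inside the gene and 7.6 with its summit 853 bp past the far end. Rplp1 had regions of 5.7 and 7.6 outside its body. Rplp2 had 2 regions of 5.7 inside the gene and 2 0.48-step regions of 0.96. In all, 2 of the 3 reached 7.6 and 0 reached 9.5, and their summed signals stood at percentiles 50.5, 73.4 and 56.3 of their length neighbours.

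Rpl5 and Rpl11 form with 5S rRNA the particle that stabilises p53 when ribosome production fails. Rpl5 had a region of 7.6 over its start (chr5:107899691-107900564, summed signal 3402.9) and 3 more of 3.8 to 5.7 downstream. Rpl11 had a single region of 3.8 over its start. Their summed signals stood at percentiles 55.2 and 18.5, so the 2 partners did not share a level.

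The 13 paralogs and copies were close to genes of their length. A signal of 7.6 or more stood at the ends of 4 (30.8%; 30.6% at similar length): Rpl39l at 9.5, and Rpl37rt, Rpl3l and Rpl7l1 at 7.6. Rpl39l and Rpl3l encode variants known from the testis and from muscle. At 5.7 stood Rpl32l, Rpl36al, Rps23rg1 and Rps27l, at 3.8 Rpl22l1, Rpl34-ps1 and Rps27rt, while Rpl31-ps12 had only a 0.48-step region of 1.44 and Rpl10l, a germ cell variant, no region within 1 kb. Rpl7l1 also held a region of 11.4 (chr17:46780245-46780872) with its summit 2161 bp inside the gene, too far from either end to count there. Rps19bp1, whose protein is no part of the ribosome, had regions of 11.4, 7.6 and 5.7. The 7.6 region covered its start and the 11.4 region (chr15:80259550-80260556) had its summit 585 bp past its far end.

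Of the 22 members whose human counterparts are mutated in Diamond-Blackfan anaemia, all 22 had a 1.9-step region at an end. So did 73 of the 76 core genes and 88.1% of all genes. Of the 22, 11 reached 7.6 (50%; 38.5% at similar length). Rps19, Rpl31 and Rpl35a, 3 of the 22, reached 9.5, against 13.3% of all genes. In summed signal they stood at a median percentile of 51.5. Of 24 listed hosts of intronic small nucleolar RNAs, 11 reached 7.6 (45.8%; 40.5%) and 21 had a 0.48-step region at an end (87.5%; 64.1%). The annotation places 56 small nucleolar RNA genes inside 29 members, and 15 lay under a 1.9-step region (26.8%), 6 under a 0.48-step region (10.7%) and 18 under either (32.1%). Of 1284 small nucleolar RNA genes elsewhere the shares were 24.5%, 7.87% and 30.3%, at a median length of 130 bp against 81 bp inside members, so those inside members were near that background. Snora21 in Rpl23 and Snord83b in Rpl3 were among those under both.

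Core genes with little signal were few. Rpl37a, a zinc-binding protein of the large subunit, had a single 0.48-step region of 0.96 and stood at percentile 10.9 in summed signal. Rps2, which lies at the mRNA entrance, had 1 region of 3.8 inside the gene and 0.48-step regions of 0.96 and 1.44. Its promoter entry starts 1942 bp inside the annotated gene, and the 3.8 and 1.44 regions overlap that promoter window. Rps4x had 3 0.48-step regions of 0.96 to 1.44 and no 1.9-step region. Rps4x is 1 of 4 members on chromosome X with Rpl39, Rpl10 and Rpl36a, and all 4 stood in the lower part of their length neighbours, at percentiles 8, 15.4, 26.4 and 36.8. In summed 1.9-step signal their 500 kb bins held 0.558, 0.299, 0.658 and 0.548 times the median autosomal bin, and the part of this in their low values was not tested.

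The opposite held in 4 members that lie in segments of raised 1.9-step signal, Rpl21 on chromosome 5 and Rpl8, Rpl3 and Rps19bp1 on chromosome 15, in bins at 3.67, 2.43, 1.76 and 1.76 times the autosomal median. All 4 reached 7.6 at an end, and 3 of them were above percentile 90 in summed signal, with Rpl8 at 43.5. The share of all genes in such segments that reached 7.6 is not given here. Without these 4 members, 40 of 86 members reached 7.6 (46.5%), against 38.9% of all genes, where genes in raised segments were kept. The median summed signal of the 86 stood at percentile 53.5. The median bin of the members, 1.133, was near that of all protein-coding genes, 1.079. Both members with 11.4 at an end thus lay in raised segments, whose part in that height was not tested.

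Strand was known for 69 members, which separates the start from the far end, each taken as an end of the annotated gene. In 5 of them, Rpl19, Rpl18, Rps2, Rps27l and Rpl38, the promoter entry starts more than 500 bp inside that gene. Within 1 kb of the start, 60 of 69 had a region of either set (87%; 82.5% of all genes with strand), and 60 of 69 had 1 within 1 kb of the far end (87%; 82.1%). In the 1.9-step set the ends differed: 48 members had a region at the start (69.6%; 70.5% of all and 69.2% at similar length), and 57 at the far end (82.6%; 69.8% and 68.1%). In the 0.48-step set it was 33 at the start (47.8%; 42.7%) and 28 at the far end (40.6%; 43.2%). A signal of 7.6 or more stood at the start of 17 members (24.6%; 22.9%) and at the far end of 17 (24.6%; 22.4%). Mitochondrial ribosomal protein genes with strand had a 1.9-step region in 79.7% at the start and 81.2% at the far end. Over these 1 kb windows the members' share in the 1.9-step set was thus close to the all-gene and similar-length backgrounds at the start. At the far end it was above both and near that of the mitochondrial list. Without the 5 members whose promoter entry starts further inside, it was 44 of 64 at the start (68.8%; 70.5% of all genes kept by the same limit) and 53 of 64 at the far end (82.8%; 69.5%).

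Base by base, a 1.9-step region covered the start of 17 of 69 members (24.6%; 21.5% of all genes) and the last base of 10 (14.5%; 19.6%). From 50 to 500 bp before the start, 21.2% of members were covered on average, against 21.1% at similar length, and from the start to 500 bp inside 19.8%, against 20.9%. From 550 to 1000 bp past the far end it was 28.4%, against 20.3% at similar length and 30.4% for mitochondrial ribosomal protein genes. On the other side, more than 1 kb and up to 2 kb before the far end, members were lower. There 15% were covered on average, against 19.7% at similar length and 27.2% for mitochondrial ribosomal protein genes. Of 65 stranded members with a 1.9-step region, the tallest lay upstream in 12, inside the gene in 33 and past the far end in 20, and of all 183 such regions at these genes 34, 104 and 45 lay there. This split was counted for the members only, so it cannot be called particular to them. Averaged over 500 bp, cover on either side of the start was close to that of genes of similar length, but single positions went both ways. At 150 and 100 bp before the start 27.5% of members were covered, against 21.7% and 21.1% at similar length. At 450 bp inside the gene it was 13%, against 20.4%. Of the 90 members, 36 have another protein-coding gene within 1 kb of an end, and the part of those neighbours in the far-end share was not tested.

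**Figure D4:**
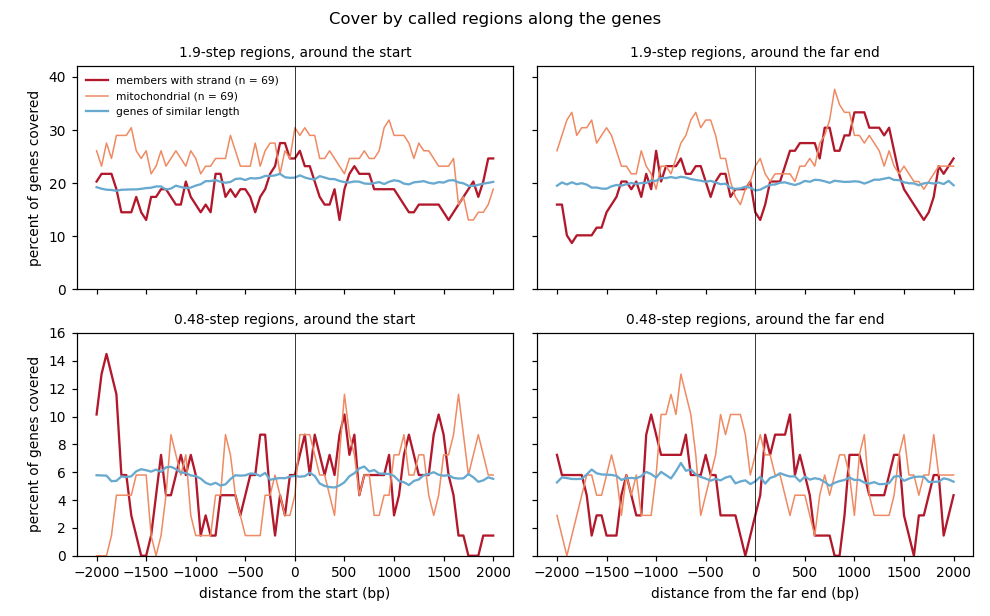
Percent of genes covered by a 1.9-step (top) or 0.48-step (bottom) region (y axis) at each distance from the start (left) and the far end (right) in bp (x axis), for 69 members, 69 mitochondrial ribosomal protein genes and genes of similar length. The members' 1.9-step line averages 21.2% from 500 to 50 bp before the start, against 21.1% at similar length. It rises to 27.5% at 150 and 100 bp before the start and falls to 13% at 450 bp inside the gene. From 550 to 1000 bp past the far end it averages 28.4%, against 20.3% at similar length. More than 1 kb and up to 2 kb before the far end it averages 15%, against 19.7%.

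**Figure D5:**
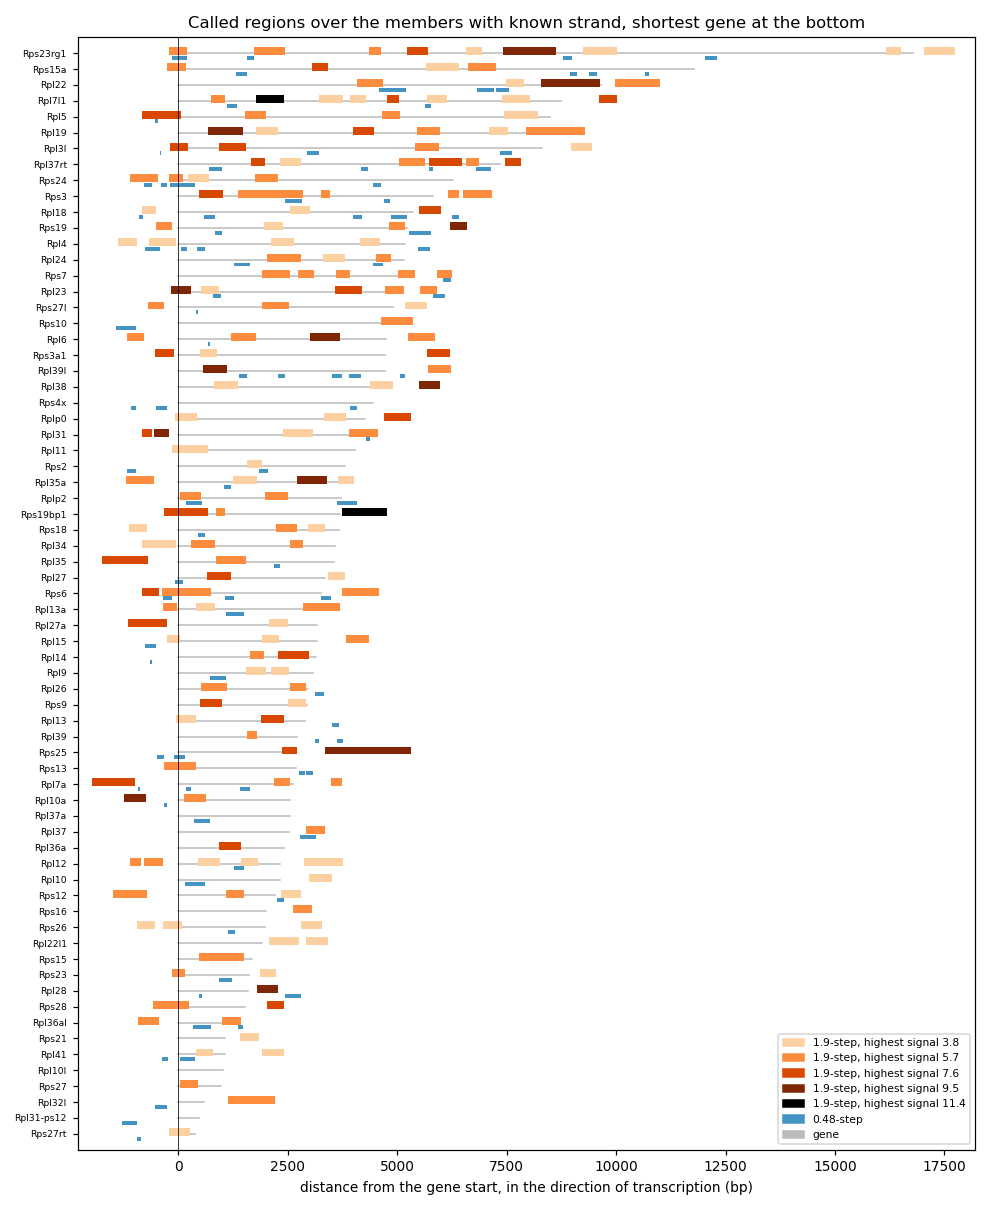
Each of the 69 members with known strand as a line of its length, shortest at the bottom, with 1.9-step regions coloured by highest signal and 0.48-step regions in blue, against distance from the gene start in bp (x axis). Tall regions fall before, inside and after genes with no common position, and among regions of 9.5 or more only that of Rpl23 covers a start.

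The promoter window, from 250 bases before to 50 after the start, was overlapped by a 1.9-step region in 29 of the 69 members with an entry (42%; 33.7% of all genes and 32.6% at similar length), by a 0.48-step region in 9 (13%; 12.3%) and by a region with a highest signal of 7.6 or more in 8 (11.6%; 9.6%). Mitochondrial ribosomal protein genes had a 1.9-step region there in 47.8%. The tallest overlapping regions were at Rpl23 and Rpl31 with 9.5, followed at 7.6 by Rpl19, Rpl27a, Rpl3l, Rpl5, Rps19bp1 and Rps3a1. Their summits need not lie in the window. At Rpl31 and Rpl27a they stood 452 and 909 bp before the start, and at Rpl19 the summit also lay outside the window. Median GC content was 57% in the members with such a region and 56.8% in the 40 without, against 56.3% over all promoters, so base composition differed little between covered and uncovered promoters. The 21 members without a promoter entry include Rpl3, Rpl7, Rpl8, Rpl21, Rpl23a, Rpl36, Rps14 and Rps29.

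Short motifs were counted in the same 300 bp on both strands. TAAT, the core bound by many homeodomains, occurred in 33 of 69 member promoters (47.8%), against 52.6% of all 17274 promoters, and TGATAC, a form of the site bound by Six3 and its relatives, in 2 (2.9%; 4.6%). Of the 29 promoters with a 1.9-step region 14 held TAAT, and of the 40 without 19 did. The share with a homeodomain core was therefore alike with and without a region and no higher than over all promoters. CCGGAAG, an Ets family site, occurred in 24 (34.8%; 12.1%), in 10 of the 29 with a region and 14 of the 40 without. TATAAA occurred in 9 (13%; 13.4%), GCATGCG, the core of the Nrf1 site, in 4 (5.8%; 4.54%), and CACGTG, the E-box that Myc binds, in 5 (7.25%; 8.01%). These motifs do not contain each other, though several can share a promoter.

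A run of 5 or more pyrimidines (C or T on the coding strand) that reached within 10 bases of the start was found in 49 of 69 member promoters (71%), against 46% of all promoters and 56.5% of mitochondrial ribosomal protein promoters. The rule is looser than a TOP tract, which begins the mRNA, because runs wholly before or after the annotated start also count. For runs of 8 or more the shares were 42%, 13.7% and 13%. The run in Rpl27a printed above has 20 bases and spans the annotated start. The run in Rpl31 has 13, begins 18 bases before the annotated start and ends before it. Runs of 5 or more occurred in 21 of the 29 promoters with a 1.9-step region and in 28 of the 40 without. Such runs were thus more frequent in member promoters than over all promoters, and about as frequent in promoters with a region as in those without.

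Overlap of the step sets at the members was that of the table. Of 132 0.48-step regions at members, 37 (28%) overlapped a 1.9-step region, against 27.7% of all 0.48-step regions.

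Mitochondrial ribosomal proteins, made from nuclear genes for the ribosome of the mitochondrion, were the nearest comparison. All 78 had a region at an end, 41 reached 7.6 (52.6%; 39.8% at similar length) and 15 reached 9.5 (19.2%; 13.7%). In summed signal their median percentile among genes of similar length was 66.1, with 58 of 78 above percentile 50, against 55.4 and 52 of 90 for the cytosolic genes. They are longer, at a median of 7690 bp. Mrpl54 and Mrps6 had the tallest regions at an end, at 11.4. The bin of Mrpl54 held 2.18 times the autosomal median, and its part in that height was not tested. A share of tall regions like that of the cytosolic genes was therefore also present in this list.

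Other genes of protein synthesis gave similar or higher shares. Among 20 translation factors and related genes with TOP mRNAs, all had a region and 15 reached 7.6 (75%; 40.9% at similar length), with Eif4b at 13.3 and Eef1a1, the elongation factor that delivers tRNA, at 11.4. Among 40 genes of ribosome biogenesis and RNA polymerase I, 19 reached 7.6 (47.5%; 40.4%) and 12 reached 9.5 (30%; 14.2%), with Bop1 at 15.2 and Nmd3, the export adaptor of the large subunit, at 11.4. Among 10 genes of growth control, 5 reached 7.6 (50%; 41.1%), with Myc at 13.3 and Mdm2 at 9.5. The bins of Bop1, Eif4b and Myc held 4.2, 1.86 and 5.18 times the autosomal median. Those of Eef1d, Hnrnpa1 and Eef2, each with 7.6 at an end, held 3.66, 1.98 and 2.18 times it. That of Polr1d, with 9.5 at an end, held 4.09 times it, while Eif3l, in a bin at 1.86, reached only 5.7. The part of raised bins in the heights and shares of these lists was not tested. Of the ribosomal genes outside the symbol rule, Fau and Rack1 each had 5.7 as their highest signal at an end, and Rpsa had 7.6.

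Processed copies of ribosomal protein genes are the most numerous pseudogenes of mammals. Of 312 annotated pseudogenes with a ribosomal protein symbol, 46.8% overlapped a region of either set and 35.6% a 1.9-step region, against 59.8% and 48.2% of 10016 other pseudogenes. The median lengths were 527 bp and 943 bp, so the copies present a shorter target, and the lower shares are not corrected for it.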

How the data were processed

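The submitters' processing notes name Bowtie2, deepTools, SEACR and mm10, without versions or settings. The name of the deposited table points to spike-in scaling and BEDOPS. Its highest and summed coverage signal per region are the authors' values. A region joined a step set when its highest signal was within 0.001 of a whole number of steps. Genes, strands (69 of 90 members) and promoters came from RefSeq tables of GRCm38.p6, and 1 bp of overlap counted. A member's background was its 1000 nearest non-members by length. Raised segments were 3 or more bins of 500 kb above 1.6 times the autosomal median. As 0 columns hold single libraries, the planned limma comparison of FLAG with IgG could not be made. Genes named are the 12 members tallest at an end, those without a region there, those in raised segments, those with a tall 0.48-step region, P stalk, 5S particle and paralog genes, and the top 2 of each list; others were chosen after their values were seen. A few genes are not reported here. Members and lists were chosen with earlier results of these data known. The counting was tested on simulated data: 0 of 1500 windows differed. Python 3.11.15, numpy 2.4.6, pandas 2.3.3 and matplotlib 3.10.9 were used.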

Additional observations from a re-analysis of the deposited data

How the results depend on the processing

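Of 56 alternative values, 42 stayed within 1.5 times the value reported and 14 moved further; in each the cause was fewer genes or a smaller or stricter target. With windows of 500 bp, 0.48-step regions were at 40 members and signals of 7.6 or more at 26, against 45.6% and 27% of all genes. With regions of at least 3 steps, 0.48-step regions were at 20 of 90 members, against 23.7% of all genes, so the members were not above that background. Using the start alone, with 69 members, 48 had a 1.9-step region, 33 a 0.48-step region and 17 a signal of 7.6 or more; using the far end alone, 28 had a 0.48-step region and 17 a signal of 7.6 or more. Among the 54 members with no other protein-coding gene in an end window, an alternative added after seeing the data, the counts were 53 with any region, 51 with a 1.9-step region, 34 with a 0.48-step region and 26 at 7.6 or more. The shares of all genes were 94.2%, 88.1%, 65.7% and 38.9%, not limited to genes without such a neighbour. Also added later, without 5 members whose promoter entry starts over 500 bp inside the gene, 44 of 64 had a 1.9-step region at the start and 53 at the far end. With 2 kb windows, 56 members reached 7.6, against 55.9% of all genes, and 79 had a 0.48-step region, against 85.1%. Merging overlapping regions was run only for counts that do not depend on the step set and left both at 89 and 44. No paired analysis was possible because no region can be traced to a replicate, and for the same reason no replicate could be left out. Library depth is not known, and no region can be given to FLAG or IgG.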
